A study of Homo sapiens with 13 samples.

Results

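The mitochondrial protein import genes were taken by symbol, as every protein-coding gene named TIMM or TOMM with a number, together with DNAJC19, PAM16, GRPEL1, HSPA9, PMPCA, PMPCB, CHCHD4 and GFER. The rule uses symbols and biotype alone, and it found 32 of the 26454 genes of the table, 19258 of them protein-coding. Almost all mitochondrial proteins are encoded in the nucleus, made on cytosolic ribosomes and brought into the organelle afterwards. They enter through the TOM complex of the outer membrane, small TIM chaperones escort membrane proteins across the space behind it, and the TIM23 and TIM22 complexes pass them through or into the inner membrane. A motor around the chaperone mortalin pulls matrix proteins inward, a peptidase then removes their targeting signal, and a disulfide relay traps small cysteine-rich proteins between the membranes. By role the genes are 10 of the TOM complex and its receptors (with the cytosolic cochaperone TOMM34), 6 small TIM chaperones, 7 of the inner membrane translocases, 5 of the import motor, 2 of the processing peptidase and 2 of the disulfide relay.

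U2OS, the line used, was derived from a human osteosarcoma. The libraries hold either RNA recovered with eIF4G by immunoprecipitation (IP) or total RNA, both depleted of ribosomal RNA. eIF4G is the scaffold of the cap-binding complex that brings mRNAs to the small ribosomal subunit. CDK12 siRNA with mock treatment gave 2 IP and 2 total libraries, control siRNA with rapamycin 2 and 2, and control siRNA with mock treatment, called control here, 3 and 2. siRNA was applied for 48 h, and rapamycin, which inhibits the kinase complex mTORC1, at 50 ng/ml for 24 h. CDK12 is a kinase of RNA polymerase II. All libraries share the cell line and a transfected siRNA. No mock IP was analysed here, so RNA bound to eIF4G and RNA carried along cannot be told apart. The labels do not say whether replicates were cultured separately, and the p-values cover the spread of these libraries alone, possibly technical. A date code found on the rapamycin libraries and on no others means that rapamycin and date cannot be told apart.

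Depth, as inferred from the deposited FPKM, was 12.9 to 30.6 M tags per library. Levels are FPKM as deposited, counted over whole gene bodies, and so are shares of a library. In such bulk samples fewer cells and less RNA per cell cannot be told apart. CDK12 itself measured 0.706 and 0.707 FPKM in total RNA after its siRNA, against 1.64 and 1.72 FPKM in control total RNA (-0.55 ± 0.05, adjusted p = 4.52e-05). With rapamycin CDK12 was also called lower in total RNA, at 1.25 and 1.29 FPKM (-0.37 ± 0.05, adjusted p = 0.0009). The 6 mesenchymal markers had a summed level of 58.3 to 251 FPKM, most of it VIM. RUNX2 lay between 0.337 and 2.57 FPKM, and ALPL was low, at 0.068 to 0.229 FPKM. By comparison, 4 haematopoietic markers summed to at most 0.169 FPKM, led by PTPRC, and 2 epithelial markers to at most 0.582 FPKM, led by EPCAM. CD3E, MS4A1, CD14 and CDH1 were at or near 0. The rapamycin IP stood apart. Across genes, which are not independent replicates, it had a correlation of 0.838 with the control IP, against 0.944 with total RNA of rapamycin cells. Summed nuclear noncoding RNA (4 genes, led by MALAT1) stood at 342 to 414 FPKM there, against 115 to 141 FPKM in the control IP, and MYO1D alone took 5.5% and 6.3% of its tags. The part of these differences in the results below was not tested.

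The import genes together took 0.365% and 0.406% of all tags in the CDK12 siRNA IP, 0.246% and 0.203% in the rapamycin IP, and 0.439%, 0.413% and 0.396% in the control IP. In total RNA they took 0.104% and 0.1002% after CDK12 siRNA, 0.151% and 0.138% with rapamycin, and 0.107% and 0.104% in control cells. The summed share in the rapamycin IP was thus below that of every control IP library, while in total RNA it was above both controls. Of the 32 genes, 31 reached 1 FPKM in at least 2 libraries and were tested, and 28 reached it in at least 2 total RNA libraries. CHCHD4, PAM16 and TIMM23B passed through the IP alone. The gene left out, TOMM20L, a relative of TOMM20, lay between 0.068 and 0.399 FPKM in the 13 libraries. Differences are log2 differences ± SE of scaled FPKM + 1 from 1 limma fit over 9908 genes, called at an adjusted p under 0.05. Adding 1 shrinks the differences of genes with low values. Scaling by median-ratio factors of 0.869 to 1.23 moved the median difference of all tested genes to 0.06 in rapamycin total RNA, against 0.22 unscaled, and to -0.05 in the rapamycin IP, against 0.12 unscaled. After CDK12 siRNA the median was 0.02 in total RNA, against -0.10 unscaled, and -0.02 in the IP, against 0.07 unscaled.

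In control cells the IP held more of the import mRNAs, gene for gene, than total RNA did. All 28 import genes that reached 1 FPKM in at least 2 total RNA libraries were higher in the IP. So were the 3 that passed through the IP alone, which had to differ. Among the 28, TIMM23 and TIMM9 reached 1 FPKM in total RNA with rapamycin but not in control total RNA. Of all tested genes 54.0% were higher there and 26.4% lower. The 31 import genes, with the 3 that passed through the IP alone among them, had a median difference of 1.40, and all tested genes one of 0.35. Ratios of mean FPKM ran to 18.8 for TOMM5 and to 16.0 for TIMM8B, and were lowest, among the tested genes, for PAM16 at 1.35, TOMM40 at 1.38 and TOMM40L at 1.53. TOMM40 is the pore of the outer membrane, and TOMM5 is a small subunit of the same complex. Quantile normalization gave 23 higher and 1 lower, where 39.2% of all tested genes were higher and 37.9% lower. It turned TOMM34, HSPA9, TOMM22, TIMM10B and TOMM40, and removing the length trend turned TIMM8A, TOMM40, PAM16 and TOMM40L. The median of the import genes was 0.68 with quantile normalization and 0.78 with the length trend removed. Among genes with a mean of at least 5 FPKM over all 13 libraries, 13 of 13 import genes were higher, where 87.5% of all such genes were. That mean includes the 7 IP libraries, so a gene can pass because it is high in the IP. TIMM17A, for example, stayed under 5 FPKM in every total RNA library. The part of abundance was not tested.

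TOMM5 (hg19 chromosome 9, 37588412 to 37592636) measured 193, 177 and 155 FPKM in the control IP, against 9.04 and 9.55 FPKM in control total RNA, a difference of 4.29 ± 0.23 (adjusted p = 1.64e-07). TIMM8B (hg19 chromosome 11, 111955539 to 111957522), a small TIM chaperone, measured 67.2, 57.6 and 56.7 FPKM in the control IP, against 3.74 and 3.82 FPKM in total RNA (3.87 ± 0.34, adjusted p = 3.32e-06). In both of these small subunits every IP library stood far above every total RNA library. Larger membrane and matrix proteins were also called. TIMM17A (hg19 chromosome 1, 201924619 to 201939789), a core subunit of the TIM23 channel, measured 34.1, 32.0 and 26.5 FPKM in the control IP, against 3.59 and 3.02 FPKM in total RNA (3.07 ± 0.13, adjusted p = 7.17e-08). PMPCB (hg19 chromosome 7, 102937873 to 102955133), the catalytic subunit of the processing peptidase, measured 17.6, 17.1 and 16.7 FPKM in the control IP, against 3.87 and 3.84 FPKM in total RNA (2.09 ± 0.10, adjusted p = 1.16e-07). TIMM21 (hg19 chromosome 18, 71815746 to 71826204), which links the TIM23 complex to the TOM complex, measured 11.4, 10.9 and 9.60 FPKM in the control IP, against 2.47 and 2.44 FPKM in total RNA (1.93 ± 0.10, adjusted p = 1.43e-07). IP and total libraries did not overlap for any of these genes.

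HSPA9 (hg19 chromosome 5, 137890571 to 137911318), the mortalin of the motor, measured 18.0, 18.2 and 18.1 FPKM in the control IP, against 7.18 and 6.28 FPKM in total RNA (1.498 ± 0.11, adjusted p = 7.8e-07). CHCHD4 (hg19 chromosome 3, 14153577 to 14166371), the oxidoreductase of the disulfide relay, measured 3.62, 3.33 and 3.42 FPKM in the control IP, against 0.503 and 0.622 FPKM in total RNA (1.66 ± 0.08, adjusted p = 1.08e-07). CHCHD4 passed the filter through the IP alone, so it had to differ. GFER (hg19 chromosome 16, 2034150 to 2037750), the sulfhydryl oxidase that recharges CHCHD4, measured 7.21, 6.58 and 6.29 FPKM in the control IP, against 2.72 and 2.25 FPKM in total RNA (1.32 ± 0.09, adjusted p = 9.09e-07). The remaining members lay between 0.33 for PAM16, a J-like regulator of the motor, and 2.86 for TIMM10. By role, median differences were 1.88 for the small TIM chaperones, 1.68 for the peptidase, 1.498 for the motor, 1.49 for the disulfide relay, 1.40 for the inner membrane translocases and 1.19 for the TOM complex, with ranges that overlapped. The motor median includes PAM16, the relay median CHCHD4 and the translocase median TIMM23B, which passed through the IP alone.

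**Figure D1:**
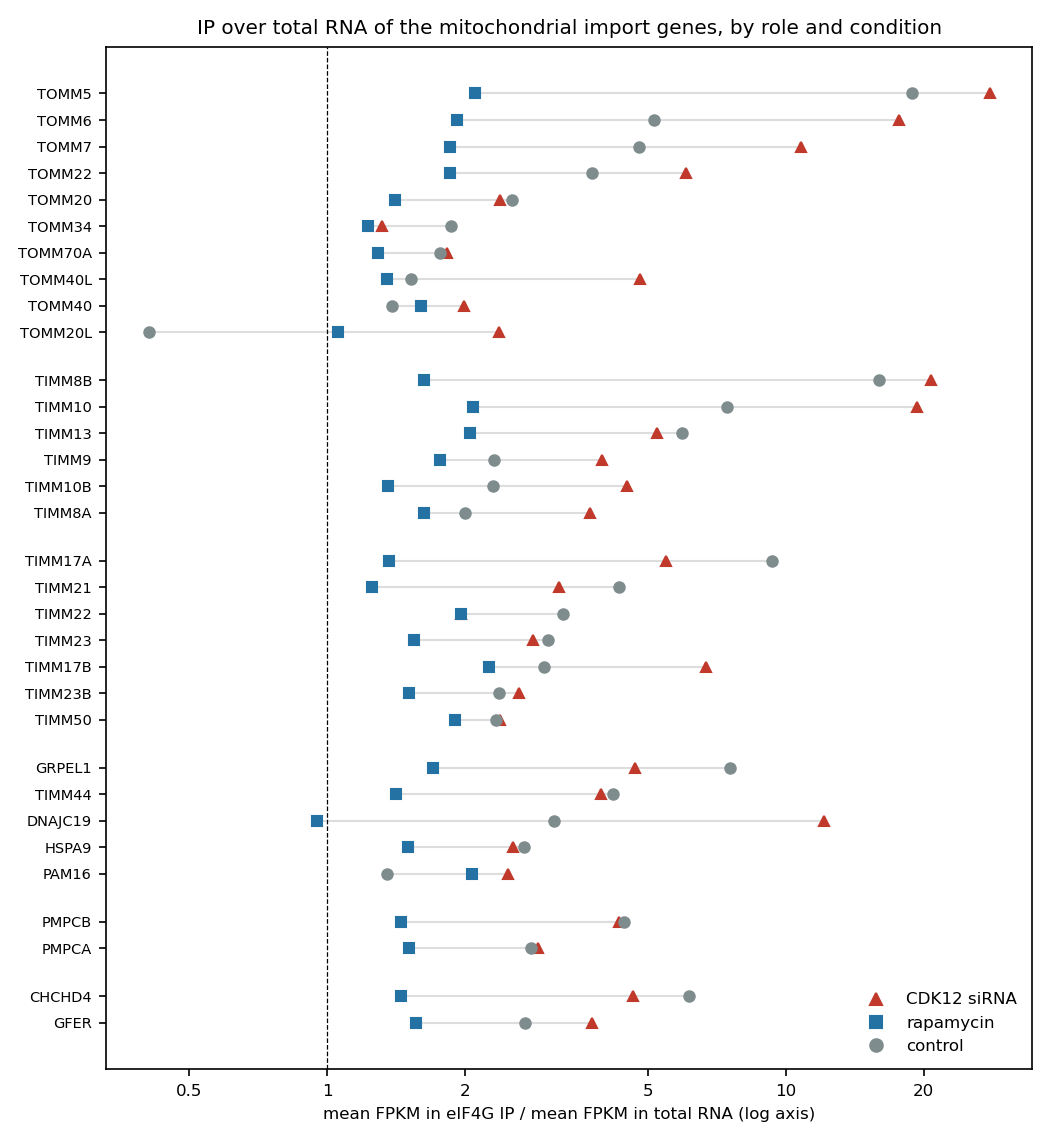
Ratio of mean FPKM in the eIF4G IP to mean FPKM in total RNA (log axis) for all 32 genes, in blocks from top to bottom of the TOM complex, small TIM chaperones, inner membrane translocases, import motor, processing peptidase and disulfide relay, with triangles for CDK12 siRNA, squares for rapamycin and circles for control. The squares lie between 0.950 and 2.26, while the circles of the 31 tested genes reach 18.8 and the triangles 27.9.

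With rapamycin the IP to total ratios of the members lay closer together. The IP to total ratio of mean FPKM had a median of 1.56 and a range of 0.950 to 2.26 over the 32 genes in rapamycin cells, against a median of 3.00 and a range of 0.408 to 18.8 in control cells. The 0.408 is that of TOMM20L, which was not tested, and the lowest tested gene in control cells was PAM16. Across all tested genes too the IP stood closer to total RNA, with a correlation of 0.944 in rapamycin cells and 0.765 in control cells. The spread of ratios over all genes was not taken. TOMM5 had a ratio of 2.10 in rapamycin cells, against 18.8 in control cells. For TIMM17A the ratio was 1.36 in rapamycin cells, against 9.34 in control cells. TOMM40 and PAM16, near the bottom of the control order, had ratios of 1.60 and 2.07 in rapamycin cells, against 1.38 and 1.35 in control cells.

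In the IP itself, most of the set was lower with rapamycin. Of 31 tested genes 26 fell and 0 rose by limma (0 rose at an unadjusted p under 0.05), where 40.3% of all tested genes fell and 32.2% rose. CHCHD4, PAM16 and TIMM23B are among the 26. The median difference was -0.80, against -0.05 over all tested genes. All 5 motor genes, both peptidase subunits and both genes of the disulfide relay fell, as did 5 of 6 small TIM chaperones, 6 of 7 inner membrane translocases and 6 of 9 TOM complex genes. The 5 genes not called were TOMM20 (0.03), TOMM7 (-0.40), TOMM40 (-0.08), TIMM17B (0.09) and TIMM9 (-0.06). Without scaling 0 rose and 19 fell, with TIMM50 and TIMM23B turned to 0.044 and 0.012, and the median was -0.49. Of all tested genes 42.7% rose and 31.3% fell at that setting. With quantile normalization 3 rose and 16 fell, with TOMM22, TIMM50 and TIMM10B turned, and the median was -0.31. Of all tested genes 32.9% rose and 34.6% fell there. With the length trend removed 0 rose and 22 fell, and the median was -0.55. Among genes with a mean of at least 5 FPKM, 11 of 13 import genes fell, where 64% of all such genes fell, with medians of -1.06 and -0.75. That mean includes the IP libraries, so genes high in the control IP pass more readily.

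TIMM17A had the smallest p of the set. It measured 6.14 and 5.18 FPKM in the rapamycin IP, against 34.1, 32.0 and 26.5 FPKM in the control IP, a difference of -2.54 ± 0.13 (adjusted p = 2.81e-07). TIMM21 measured 2.90 and 2.33 FPKM in the rapamycin IP, against 11.4, 10.9 and 9.60 FPKM in the control IP (-1.95 ± 0.10, adjusted p = 2.98e-07). In both translocase genes the rapamycin libraries lay far below every control library, with no overlap. CHCHD4 measured 1.07 and 0.879 FPKM in the rapamycin IP, against 3.62, 3.33 and 3.42 FPKM in the control IP (-1.38 ± 0.08, adjusted p = 5.43e-07). PMPCB measured 6.65 and 5.71 FPKM in the rapamycin IP, against 17.6, 17.1 and 16.7 FPKM in the control IP (-1.62 ± 0.10, adjusted p = 8.31e-07). The partner subunit of the peptidase, PMPCA, which recognises the targeting signal, fell by 0.95 on the log2 scale, and the difference between the subunits was not tested.

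TOMM5 measured 32.1 and 22.9 FPKM in the rapamycin IP, against 193, 177 and 155 FPKM in the control IP (-2.95 ± 0.23, adjusted p = 2.65e-06). TIMM8B measured 16.4 and 11.9 FPKM in the rapamycin IP, against 67.2, 57.6 and 56.7 FPKM in the control IP (-2.33 ± 0.34, adjusted p = 0.00018). Both of these abundant small subunits lay far below every control library. TIMM10, which forms a hexamer with TIMM9, measured 19.6 and 12.3 FPKM in the rapamycin IP, against 39.2, 31.3 and 38.3 FPKM in the control IP (-1.47 ± 0.26, adjusted p = 0.000589). TIMM9 itself measured 2.75 and 2.05 FPKM in the rapamycin IP, against 2.06, 1.87 and 2.16 FPKM in the control IP (-0.06 ± 0.12, adjusted p = 0.695), and its groups overlapped. The partners in that hexamer gave a call and no call in the same libraries, and the difference between them was not tested. HSPA9 measured 12.99 and 11.9 FPKM in the rapamycin IP, against 18.0, 18.2 and 18.1 FPKM in the control IP (-0.80 ± 0.11, adjusted p = 9.25e-05). GFER measured 4.29 and 5.00 FPKM in the rapamycin IP, against 7.21, 6.58 and 6.29 FPKM in the control IP (-0.72 ± 0.09, adjusted p = 9.64e-05). GRPEL1, the nucleotide exchange factor that resets mortalin, differed by -1.74 ± 0.13, and TIMM44, which anchors mortalin at the channel, by -1.18 ± 0.09.

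**Figure D2:**
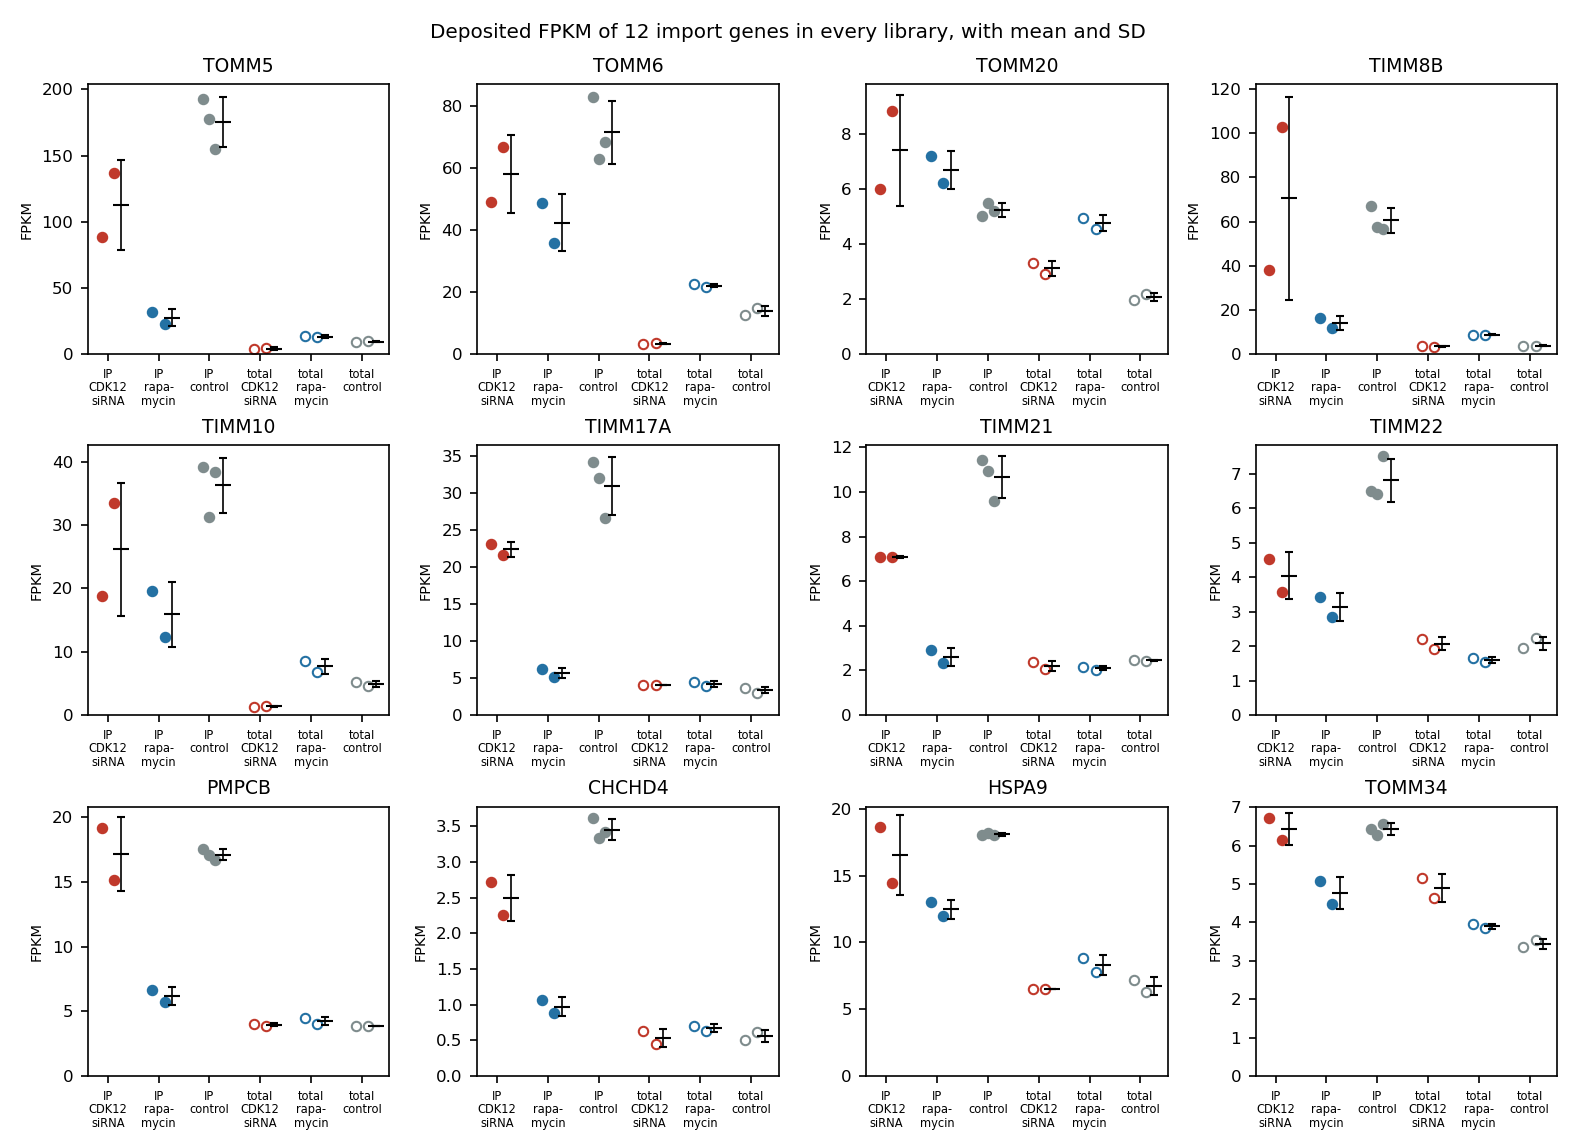
Deposited FPKM of 12 import genes in every library (filled points IP, open points total RNA), by treatment, with the mean and SD beside each group of 2 or 3 libraries and axes starting at 0. In TIMM17A, TIMM21, CHCHD4 and PMPCB the rapamycin IP points lie below every control IP point, while in TOMM20 they lie above.

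TOMM20, the receptor for targeting signals, took another course from these genes. It measured 7.19 and 6.22 FPKM in the rapamycin IP, against 5.01, 5.49 and 5.21 FPKM in the control IP, which after scaling was 0.03 ± 0.14 (adjusted p = 0.842), with overlapping groups. In total RNA it measured 4.95 and 4.56 FPKM with rapamycin, against 1.97 and 2.17 FPKM in control cells, and rose by 0.70 ± 0.15 (adjusted p = 0.00673). That rise was lost without rapamycin total RNA replicate 1. TOMM20 overlaps a small nucleolar RNA, SNORA14B, on the same strand.

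Terminal oligopyrimidine mRNAs, whose translation is known to depend on mTORC1, begin with a C and a run of pyrimidines. RefSeq promoters (GRCh38.p14, 250 bases before to 50 after each gene's start) matched 29 of the 32 genes, TOMM70A under its current symbol TOMM70, but not TOMM5, GRPEL1 or TIMM8B. A C at the first base followed without break by pyrimidines to a run of at least 5 was found in 3 of the 29, TOMM20, TOMM7 and TOMM70, a share of 10.3% against 4.60% of 15843 protein-coding promoters. Their windows of 60 bases before the start and 20 after are shown because they hold that run, with capitals marking the run from the first base and each CCGGAAG, the core of sites bound by ETS factors, read on either strand.
TOMM20, chr1:235128818-235128897, minus strand: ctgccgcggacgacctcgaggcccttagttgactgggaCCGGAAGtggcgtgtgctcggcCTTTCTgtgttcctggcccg
TOMM7, chr7:22822830-22822909, minus strand: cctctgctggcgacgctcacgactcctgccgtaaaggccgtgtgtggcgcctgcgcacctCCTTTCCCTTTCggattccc
TOMM70, chr3:100401070-100401149, minus strand: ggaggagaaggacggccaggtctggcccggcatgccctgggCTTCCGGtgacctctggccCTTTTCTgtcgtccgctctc
TOMM20 and TOMM7, a small stabilising subunit of the pore, were not called in the rapamycin IP, and TOMM70A, a receptor for carrier proteins, fell there by 0.28 on the log2 scale (adjusted p = 0.00484), a call lost without rapamycin IP replicate 2 and under 3 other settings. Relative to total RNA all 3 were called lower with rapamycin, at -0.66 ± 0.20 for TOMM20, -1.08 ± 0.40 for TOMM7 and -0.37 ± 0.10 for TOMM70A. So were most of the set, 24 of 31 tested genes. The call was lost under 5 of 21 alternatives for TOMM20, 13 of 23 for TOMM7 and 3 of 21 for TOMM70A. All 3 calls were lost with quantile normalization and with the length trend removed. Whether the run goes with the change was not tested. The windows of PMPCB and TIMM10 are shown for the CCGGAAG they hold.
PMPCB, chr7:103297375-103297454, plus strand: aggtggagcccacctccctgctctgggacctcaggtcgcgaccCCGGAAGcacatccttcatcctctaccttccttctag
TIMM10, chr11:57530735-57530814, minus strand: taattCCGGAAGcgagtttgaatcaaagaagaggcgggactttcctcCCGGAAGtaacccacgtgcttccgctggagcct
Over the whole promoter window, CCGGAAG on either strand was found in 11 of the 29 promoters (37.9%, against 14.2% of protein-coding promoters). A match in these letters is a description of the sequence, and RefSeq's start may not be the start used in U2OS cells.

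In total RNA rapamycin changed few of the import genes. TOMM20 rose, while PAM16, TIMM22 and TIMM21 fell, so that 1 of 31 rose and 3 fell, where 20.4% of all tested genes rose and 16.2% fell. The median difference was 0.04, against 0.06 over all tested genes. PAM16 (hg19 chromosome 16, 4390252 to 4401373) measured 0.432 and 0.493 FPKM with rapamycin, against 0.924 and 0.832 FPKM in control total RNA (-0.43 ± 0.11, adjusted p = 0.0138), and lies wholly inside the readthrough gene CORO7-PAM16 on the same strand, so its value is uncertain. TIMM22 (hg19 chromosome 17, 900357 to 905390), the channel that inserts carrier proteins, measured 1.67 and 1.54 FPKM with rapamycin, against 1.96 and 2.22 FPKM in control total RNA (-0.40 ± 0.11, adjusted p = 0.0211). TIMM21 measured 2.15 and 2.02 FPKM with rapamycin, against 2.47 and 2.44 FPKM in control total RNA (-0.33 ± 0.11, adjusted p = 0.0406). For these 3 genes each rapamycin library was below both controls. The count was the least stable of the set. Without scaling there were 10 rises and 1 fall (median 0.25), where 42% of all tested genes rose and 9.09% fell. With quantile normalization there were 4 and 8 (median -0.10), where 25.2% of all tested genes rose and 30.4% fell. Without rapamycin total RNA replicate 1 there were 0 calls.

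Set against total RNA, 22 of the 26 genes that fell in the rapamycin IP were also called lower. The change in the IP minus that in total RNA was below 0 and called for 24 of 31 genes and above 0 for 0 by limma (0 at an unadjusted p under 0.05), where 37.9% of all tested genes were lower and 24.5% higher. TOMM20 and TOMM7 are among the 24 without a call in the IP, TOMM20 with -0.66 beside its rise in total RNA. CHCHD4 and TIMM23B, also among the 24, had passed the filter through the IP alone. Their total RNA values lie under the 1 that is added, which shrinks that side of the difference. The median was -0.79, against -0.14 over all tested genes. With quantile normalization 2 were higher and 12 lower, the median was -0.23, and TOMM34, HSPA9, TOMM22, TIMM50 and TIMM10B turned. Of all tested genes 28.6% were higher and 26.1% lower at that setting. With the length trend removed the median was -0.49 and TIMM50 turned. Among genes with a mean of at least 5 FPKM, IP libraries included, 12 of 13 import genes were lower, where 70.2% of all such genes were. Genes high in the control IP pass that level more readily. TIMM17A differed by -2.60 ± 0.19 (adjusted p = 1.06e-05), CHCHD4 by -1.38 ± 0.12 (adjusted p = 2.01e-05), TIMM21 by -1.62 ± 0.15 (adjusted p = 2.57e-05) and PMPCB by -1.54 ± 0.15 (adjusted p = 3.91e-05). The sizes ran furthest for TOMM5, at -3.16 ± 0.34 (adjusted p = 5.73e-05), and TIMM8B, at -3.12 ± 0.50 (adjusted p = 0.000564). HSPA9 differed by -0.84 ± 0.16 (adjusted p = 0.00127) and GFER by -0.72 ± 0.14 (adjusted p = 0.00172). On a log2(FPKM + 1) scale an equal fold in both fractions need not cancel where their levels differ. With 0.25 in place of 1, which weakens that effect, 25 were lower and 0 higher. Genes without a call were TOMM40 (0.09), TOMM40L (-0.22), DNAJC19 (-1.23), PAM16 (0.10), TIMM17B (-0.32), TIMM8A (-0.32) and TIMM9 (-0.24).

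**Figure D3:**
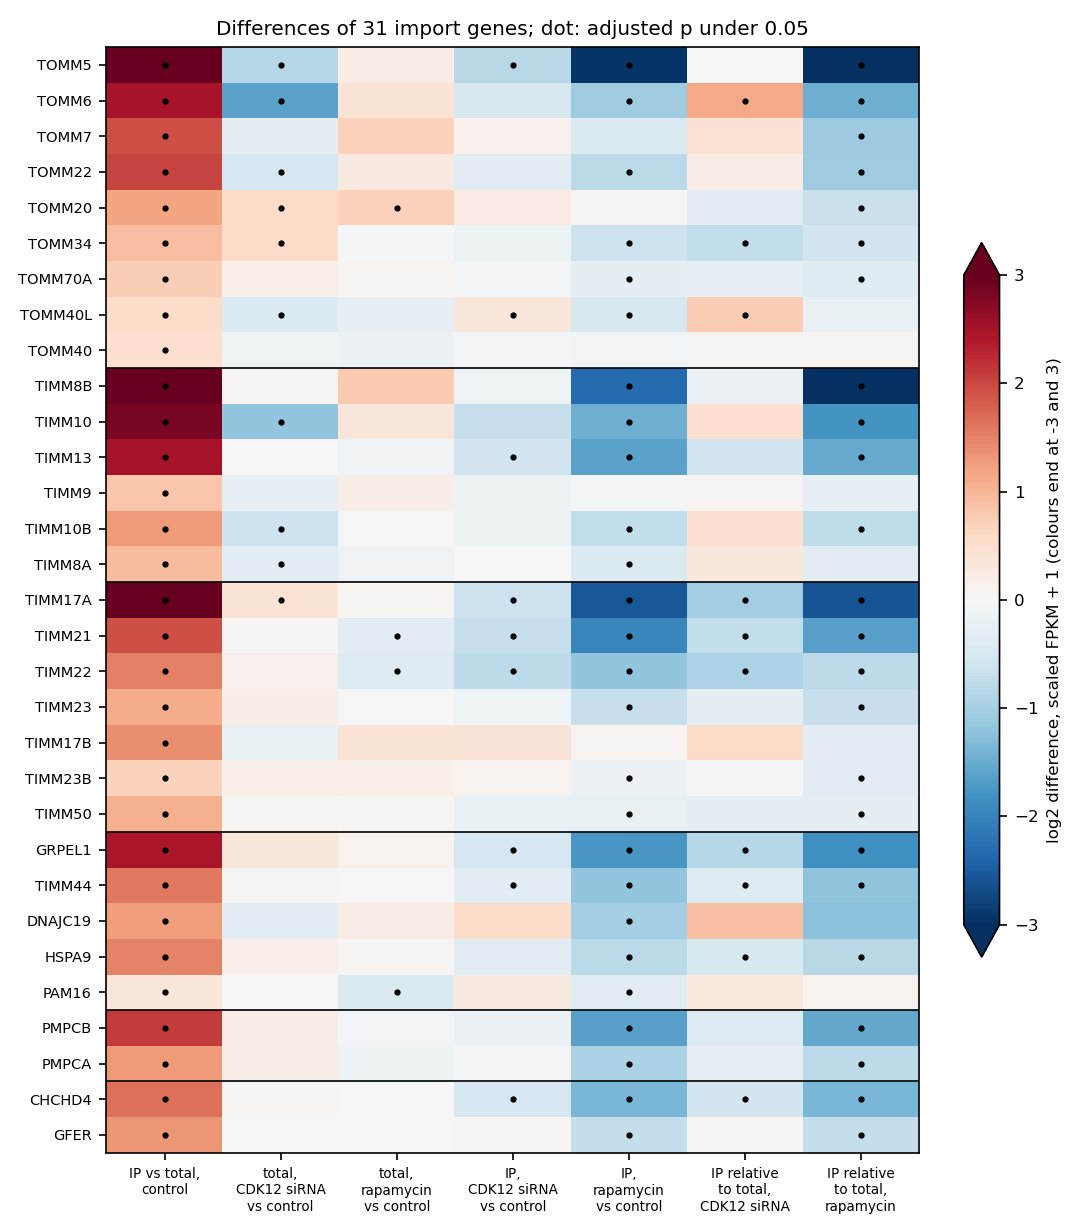
Log2 differences of scaled FPKM + 1 for the 31 tested import genes (rows, lines between roles in the order TOM complex, small TIM chaperones, inner membrane translocases, import motor, processing peptidase, disulfide relay) in 7 comparisons (columns), red higher and blue lower, with a dot where the adjusted p was under 0.05 and colours ending at -3 and 3. The rapamycin IP column holds 26 dots, all blue, and the CDK12 siRNA IP column 9.

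CDK12 siRNA was first read in total RNA, where short import genes fell. TOMM6, TIMM10B, TIMM10, TOMM40L, TOMM5, TOMM22 and TIMM8A fell, and TOMM34, TOMM20 and TIMM17A rose. That made 7 of 31 lower and 3 higher, where 19.5% of all tested genes fell and 23.3% rose, with a median of 0.04 against 0.02 over all tested genes. Without scaling 2 rose and 8 fell, with a median of -0.11, where 12.9% of all tested genes rose and 27.8% fell. With quantile normalization 7 rose and 8 fell, where 32% of all tested genes rose and 25.6% fell. Leaving out CDK12 siRNA total RNA replicate 1 or control total RNA replicate 1 left 1 rise and 3 falls each. The summed nuclear noncoding RNA was 972 to 1032 FPKM in total RNA after CDK12 siRNA, against 681 to 693 FPKM in control total RNA, with MEG3 at 0, and the 6 mesenchymal markers summed to 58.3 to 59.7 FPKM, against 93.0 to 98.6 FPKM. VIM made up most of that sum, while CD44 (2.92 and 2.89 FPKM after CDK12 siRNA, against 1.48 and 1.53 FPKM) and ALPL (0.229 and 0.195 FPKM, against 0.068 and 0.071 FPKM) went the other way. Their part in the counts was not tested.

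TOMM6 (hg19 chromosome 6, 41755181 to 41757634), a small subunit of the TOM complex, measured 3.16 and 3.41 FPKM in total RNA after CDK12 siRNA, against 12.7 and 14.9 FPKM in control total RNA (-1.61 ± 0.21, adjusted p = 0.000307). TIMM10 (hg19 chromosome 11, 57295936 to 57298232) measured 1.33 and 1.37 FPKM in total RNA after CDK12 siRNA, against 5.20 and 4.53 FPKM in control total RNA (-1.18 ± 0.28, adjusted p = 0.00788). For both genes each CDK12 siRNA library lay far below each control library. TIMM10B (hg19 chromosome 11, 6502677 to 6505911), the small TIM of the TIM22 complex, measured 4.26 and 3.58 FPKM in total RNA after CDK12 siRNA, against 7.38 and 7.75 FPKM in control total RNA (-0.63 ± 0.14, adjusted p = 0.00567). TOMM5 measured 3.37 and 4.72 FPKM after CDK12 siRNA, against 9.04 and 9.55 FPKM in control total RNA (-0.86 ± 0.25, adjusted p = 0.0201). TOMM34 (hg19 chromosome 20, 43570771 to 43589114), a cytosolic cochaperone of Hsp70 and Hsp90, measured 5.14 and 4.64 FPKM after CDK12 siRNA, against 3.35 and 3.54 FPKM in control total RNA (0.59 ± 0.08, adjusted p = 0.000371). It stood above both controls in both libraries, as did TOMM20, which measured 3.30 and 2.91 FPKM after CDK12 siRNA, against 1.97 and 2.17 FPKM in control total RNA (0.58 ± 0.15, adjusted p = 0.0121). TIMM17A rose by 0.41 ± 0.14 (adjusted p = 0.0374), a call lost without scaling and when any 1 of the 6 total RNA libraries was left out. The other called genes fell by 0.33 to 0.53 on the log2 scale (TIMM8A, TOMM40L and TOMM22), and TIMM8B, at 0.05 ± 0.37, TIMM13, at -0.02 ± 0.17, and HSPA9, at 0.15 ± 0.12, were not called.

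The genes that fell are short. Their gene bodies are all under 5000 bp, a length chosen after the values were seen, and of 11 tested import genes under that length 7 fell and 0 rose, where 15.7% of all tested genes of such length fell. Of the 20 longer ones 0 fell and 3 rose, where 20.6% of all longer tested genes fell and 27% rose. Across the 31 genes length and the change in total RNA had a Spearman rho of 0.693, against 0.164 across all 9908 tested genes. Gene-body FPKM count introns, of which longer genes hold more, and all points share the same 4 libraries. With the trend of each library with length removed, 5 rose and 5 fell, and the falls of TOMM6 and TIMM10 remained called.

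**Figure D4:**
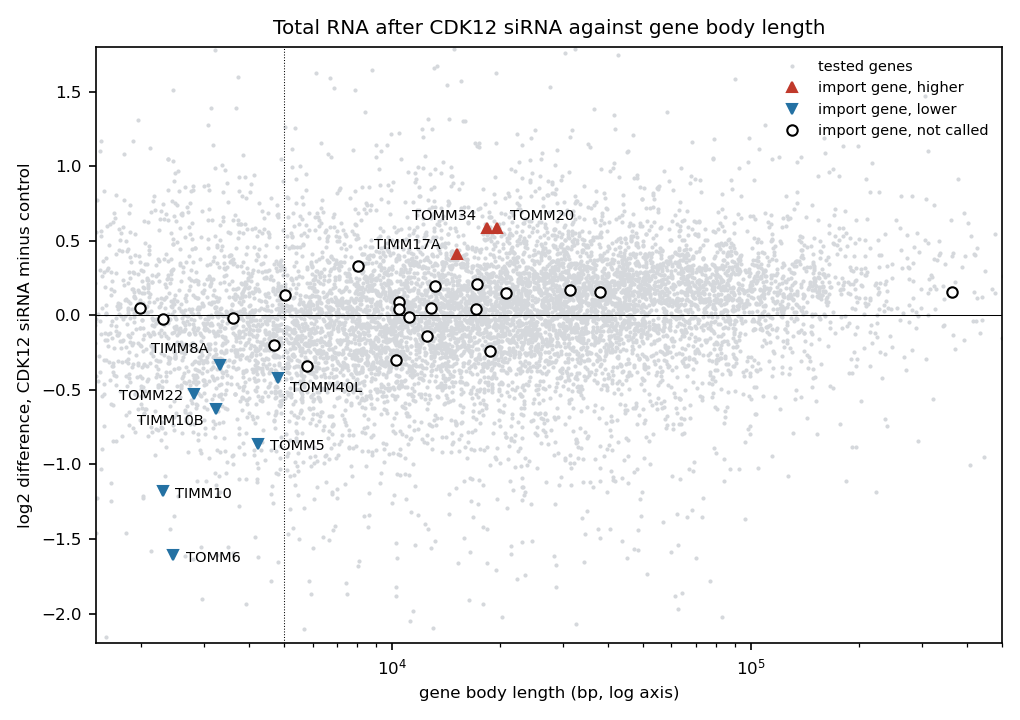
Log2 difference in total RNA, CDK12 siRNA minus control, against gene body length (log axis, dotted line at 5000 bp) for the 31 tested import genes, over the other tested genes in grey, of which 914 lie outside the axes. All 7 import genes that fell lie left of the line, and the 3 that rose lie right of it.

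In the IP after CDK12 siRNA the falls included 3 of the 7 inner membrane translocase genes and 2 of the 5 motor genes. TIMM22, TIMM21, CHCHD4, TIMM17A, GRPEL1, TIMM44, TOMM5 and TIMM13 fell and TOMM40L rose, 8 and 1 of 31, where 18.4% of all tested genes fell and 13.7% rose. Of these, CHCHD4 had passed the filter through the IP alone. The median was -0.15, against -0.02 over all tested genes. The CDK12 siRNA IP libraries differed from each other more than other replicate pairs (chi-square per degree of freedom 63.7 against 3.68 to 24.4). Replicate 3 was 0.775 to 3.33 times replicate 2 among the import genes, highest for DNAJC19 at 3.33, TIMM8B at 2.71 and TOMM7 at 2.34. Without replicate 2 the counts were 5 higher and 8 lower, and without replicate 3 they were 0 and 12. Without scaling 4 rose and 5 fell, with a median of -0.0004, where 23.9% of all tested genes rose and 9.85% fell. With quantile normalization 0 rose and 7 fell, with a median of -0.062, where 10.4% of all tested genes rose and 12% fell. With the compared groups alone or with library weights 0 rose and 3 fell.

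TIMM22 measured 4.53 and 3.57 FPKM in the CDK12 siRNA IP, against 6.497, 6.41 and 7.53 FPKM in the control IP, a difference of -0.79 ± 0.10 (adjusted p = 0.000649). TIMM21 measured 7.06 and 7.10 FPKM in the CDK12 siRNA IP, against 11.4, 10.9 and 9.60 FPKM in the control IP (-0.69 ± 0.10, adjusted p = 0.00109). CHCHD4 measured 2.72 and 2.26 FPKM in the CDK12 siRNA IP, against 3.62, 3.33 and 3.42 FPKM in the control IP (-0.50 ± 0.08, adjusted p = 0.00186). In these 3 genes both CDK12 siRNA libraries lay below every control library, and the calls were kept under every alternative run. TIMM17A measured 23.1 and 21.6 FPKM in the CDK12 siRNA IP, against 34.1, 32.0 and 26.5 FPKM in the control IP (-0.62 ± 0.13, adjusted p = 0.00598), a call lost with the compared groups alone and with library weights. TOMM5 measured 88.8 and 137 FPKM in the CDK12 siRNA IP, against 193, 177 and 155 FPKM in the control IP (-0.84 ± 0.23, adjusted p = 0.021), a call lost under 5 alternatives, among them leaving out CDK12 siRNA IP replicate 2. For TOMM40L, a relative of the pore that overlaps NR1I3 on the opposite strand, the rise of 0.35 ± 0.11 was lost under 12 of 21 alternatives. TIMM8B was among the genes that differed most within this pair, at 37.9 and 103 FPKM in the CDK12 siRNA IP, against 67.2, 57.6 and 56.7 FPKM in the control IP (-0.13 ± 0.34, adjusted p = 0.812). PMPCB at -0.18 ± 0.10, GFER at 0.05 ± 0.09 and HSPA9 at -0.31 ± 0.11 were not called.

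Relative to total RNA, CDK12 siRNA gave 8 lower and 2 higher import genes, where 22.4% of all tested genes were lower and 16.7% higher. The median was -0.18, against -0.03 over all tested genes. TIMM22 differed by -0.93 ± 0.15 (adjusted p = 0.0016), TIMM17A by -1.03 ± 0.19 (adjusted p = 0.00283) and TIMM21 by -0.74 ± 0.15 (adjusted p = 0.0044). These translocase genes were called lower in the IP. In total RNA TIMM22 and TIMM21 were not called, while TIMM17A was called higher (0.41 ± 0.14), which enters its difference. TOMM34 differed by -0.74 ± 0.11 (adjusted p = 0.001), but its IP level was 6.72 and 6.13 FPKM after CDK12 siRNA, against 6.43, 6.27 and 6.57 FPKM in control (-0.16 ± 0.07, not called), and its called change was that in total RNA. GRPEL1 (-0.85 ± 0.19), CHCHD4 (-0.55 ± 0.12), HSPA9 (-0.46 ± 0.16) and TIMM44 (-0.38 ± 0.13) were also lower, the HSPA9 call being lost under 15 and the TIMM44 call under 14 of 22 alternatives. CHCHD4 had passed the filter through the IP alone. TOMM6 was higher, by 1.13 ± 0.29 (adjusted p = 0.014), with 49.1 and 66.8 FPKM in the CDK12 siRNA IP, against 82.9, 62.9 and 68.3 FPKM in the control IP, beside its fall in total RNA. TOMM40L was higher by 0.77 ± 0.16 (adjusted p = 0.00569). Without scaling the median of all tested genes moved to 0.19 and that of the import genes to 0.13. At that setting 8 import genes were higher and 6 lower, where 32.4% of all tested genes were higher and 8.94% lower. With quantile normalization 6 were higher and 9 lower, where 22.3% of all tested genes were higher and 28% lower. Leaving out CDK12 siRNA IP replicate 2 gave 6 higher and 10 lower. The comparisons of CDK12 siRNA and of rapamycin share their control libraries. With rapamycin the same quantity was -0.78 for TIMM22, -0.57 for TOMM34, -1.83 for GRPEL1, -1.20 for TIMM44, -1.46 for TOMM6 and -0.22 for TOMM40L.

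The authors' deposited table marks genes with TRUE or FALSE in columns on CDK12 and mTORC binding, made from the same libraries, so the marks are no independent evidence. TRUE in the column on mTORC binding was given to 22 of the 32 import genes (68.8%) in the authors' deposited table. The share was 12.4% of all 26454 genes and 14.4% of protein-coding genes. Such shares include many genes too low to be tested here, while every import gene but TOMM20L was tested. No share among tested genes was taken. Every marked gene of the table had a deposited relative IP difference of at most -0.50, and no unmarked gene lay below about that value. The mark is thus a cut on that difference. For CDK12 the authors' deposited table marks 5 of 32 (15.6%), GRPEL1, TIMM17A, TIMM21, TIMM22 and TOMM34, against 4.21% of all genes and 3.66% of protein-coding genes. That mark is likewise a cut, with marked genes at most at -0.401 and unmarked genes at -0.40 or above. Of these 5, each also had a call below 0 relative to total RNA after CDK12 siRNA here. Mark and call rest on nearly the same quantity in the same libraries, so their overlap is no independent evidence.

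Other genes of protein import and quality control were counted beside the set. Of 19 other import genes 16 were tested, and 6 fell and 3 rose in the rapamycin IP, where 40.3% of all tested genes fell and 32.2% rose. The share that fell was thus near that of all tested genes. Genes named in this paragraph are among the 2 smallest p of their list in a comparison. DNAJC15, a J protein related to DNAJC19, differed by -1.65 ± 0.04 there, and TIMMDC1, a TIMM17-like assembly factor of respiratory complex I, by -1.04 ± 0.08. After CDK12 siRNA DNAJC15 fell in total RNA (-0.61 ± 0.05) and in the IP (-0.64 ± 0.04), and MTX3, a relative of the outer membrane metaxins, rose in total RNA (0.41 ± 0.06). Of the 16 genes 2 rose and 2 fell in that total RNA, where 23.3% of all tested genes rose and 19.5% fell. In the CDK12 siRNA IP 1 rose and 1 fell, where 13.7% rose and 18.4% fell. OXA1L, the inner membrane insertase, rose in rapamycin total RNA (0.82 ± 0.14), where 4 of the 16 rose and 1 fell. Of all tested genes 20.4% rose and 16.2% fell there. Of 14 mitochondrial chaperones and proteases 13 were tested, and 9 fell and 2 rose in the rapamycin IP, to be read against the same shares. HSPE1 and HSPD1, the partners of the folding chamber that receives imported proteins, differed by -2.50 ± 0.18 and -1.44 ± 0.10, and both overlap other genes. OMA1, a stress-activated inner membrane protease, fell in total RNA after CDK12 siRNA (-0.40 ± 0.06), while SPG7, a subunit of the matrix AAA protease, rose (0.42 ± 0.09). Of the 13 genes 5 rose and 1 fell there, where 23.3% of all tested genes rose and 19.5% fell.

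Overlaps limit some single values. Of the 32 members 15 overlap another gene, and the sources used here do not give the strand setting. TIMM23, the pore of the inner membrane, lies entirely within the annotated TIMM23B locus on the other strand, and the pair are near copies, so their levels, with IP differences of -0.70 ± 0.07 and -0.17 ± 0.05 for rapamycin, are uncertain. Among genes that overlap no other, an alternative chosen after the data were seen, 17 import genes were tested and 14 of them fell in the rapamycin IP, where 43.4% of all such genes fell, and 7 fell in the CDK12 siRNA IP, where 20.6% did.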

How the data were processed

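RNA recovered with eIF4G and total RNA were sequenced from 13 libraries of U2OS cells in 6 groups. The deposited values are FPKM from HOMER over hg19 gene bodies, introns included, per the file headers, and STAR 2.4.0k and FastQC were used per the submitters' processing notes. The authors' deposited log2 differences and TRUE or FALSE marks were copied only where named. Repairs were made to 28 deposited gene symbols that had turned into dates. The depth of each library was fitted so that FPKM times length and depth came near whole reads. In the 238 to 509 values of short genes then checked per library, 100% lay within 0.02 reads, which is no independent check. At that depth there were 15 to 17234 reads per import gene and library, so depth limits few members beyond TOMM20L.

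FPKM were divided by median-ratio factors and log2(value + 1) was fitted with limma 3.58.1 in R 4.3.3. The fit covered 9908 genes with at least 1 FPKM in at least 2 libraries, with all 6 groups in 1 fit. It had a median of 9.22 total degrees of freedom per gene, which add those borrowed across genes to the residual ones. Benjamini-Hochberg adjustment ran over all tested genes in each of 7 contrasts. All adjusted p-values in the text are from this fit, unless a setting is named. A simulated table holding 200 changed genes served to test the procedure. Python 3.11.15 with numpy 2.4.6, pandas 2.3.3 and matplotlib 3.10.9 made the tables and plots. The members, the gene lists and the rule for named genes (the 4 smallest p per contrast and the most abundant member of each role in full, the others by counts and ranges) were chosen with earlier results of these data known.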

Additional observations from a re-analysis of the deposited data

Results flagged for a closer look

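The change with treatment in the IP differed from that in total RNA, by the test of that difference in limma, for 10 import genes after CDK12 siRNA and 24 with rapamycin. All values are log2 differences, the change in the IP minus the change in total RNA. After CDK12 siRNA they were -1.03 for TIMM17A, -0.93 for TIMM22, -0.85 for GRPEL1, -0.74 for TOMM34, -0.74 for TIMM21, -0.55 for CHCHD4, -0.46 for HSPA9 and -0.38 for TIMM44. On the higher side TOMM6 had 1.13 and TOMM40L 0.77.

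With rapamycin, TOM complex genes gave -3.16 for TOMM5, -1.46 for TOMM6, -1.08 for TOMM7, -1.06 for TOMM22, -0.66 for TOMM20, -0.57 for TOMM34 and -0.37 for TOMM70A. Small TIM chaperones gave -3.12 for TIMM8B, -1.80 for TIMM10, -1.50 for TIMM13 and -0.76 for TIMM10B. Among inner membrane translocases the values were -2.60 for TIMM17A, -1.62 for TIMM21, -0.78 for TIMM22, -0.70 for TIMM23, -0.33 for TIMM23B and -0.28 for TIMM50. The motor genes GRPEL1, TIMM44 and HSPA9 had -1.83, -1.20 and -0.84, the peptidase genes PMPCB and PMPCA -1.54 and -0.79, and the relay genes CHCHD4 and GFER -1.38 and -0.72. Both treatments were set against the same control libraries, and every rapamycin value carries the date code of those libraries. No group held 4 or more libraries, so no search for single outlying libraries was made.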

How the results depend on the processing

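Of 114 calls on import genes 59 were kept in every alternative run, among them TOMM6, TOMM34 and TIMM10 in total RNA after CDK12 siRNA, CHCHD4, TIMM21 and TIMM22 in the CDK12 siRNA IP, and 13 in the rapamycin IP, but 0 in rapamycin total RNA. Counts of calls out of 31 moved as follows, and the causes were not tested except where fewer members were tested. The shares called among all tested genes moved between settings too, as given above for unscaled and quantile normalized values. With a mean of at least 5 FPKM, which leaves 13 members, they were 13 for IP versus total RNA, 0 for rapamycin total RNA, 5 for the CDK12 siRNA IP, 11 for the rapamycin IP, and, relative to total RNA, 4 with CDK12 siRNA and 12 with rapamycin. All genes at that level shift too, with 87.5% higher in IP versus total RNA, 64% lower in the rapamycin IP and 70.2% lower with rapamycin relative to total RNA. The mean includes the IP libraries, so that choice itself shapes these counts and shares. Among the 17 members that overlap no other gene they were 17 for IP versus total RNA, 6 and 2 for total RNA after CDK12 siRNA and rapamycin, 14 for the rapamycin IP and 14 for rapamycin relative to total RNA. Rapamycin total RNA had 11 calls without scaling, 12 with quantile normalization, 11 with the compared groups alone, 12 with library weights and 10 with the length trend removed. Library weights gave 16 in total RNA after CDK12 siRNA and 3 in the CDK12 siRNA IP, where the compared groups alone also gave 3. Quantile normalization gave 14 for rapamycin relative to total RNA. Leaving out 1 library at a time gave 30 to 31 calls for IP versus total RNA, 4 to 11 for CDK12 siRNA and 0 to 7 for rapamycin in total RNA, 7 to 13 for the CDK12 siRNA IP, 21 to 27 for the rapamycin IP, and, relative to total RNA, 7 to 16 with CDK12 siRNA and 20 to 25 with rapamycin. Rapamycin total RNA gave 1 rise and 0 falls without its replicate 2, 1 and 1 without either control total RNA replicate, and 4 and 3 without either CDK12 siRNA IP replicate. Directions of called genes turned in these cases. With quantile normalization, IP versus total RNA was -0.13 for TOMM34, -0.13 for HSPA9, -0.077 for TOMM22, -0.37 for TIMM10B and -0.12 for TOMM40, the rapamycin IP difference was 0.21 for TOMM22, 0.11 for TIMM50 and 0.0067 for TIMM10B, and rapamycin relative to total RNA was 0.077 for TOMM34, 0.16 for HSPA9, 0.31 for TOMM22, 0.12 for TIMM50 and 0.25 for TIMM10B. Without scaling the rapamycin IP difference was 0.044 for TIMM50 and 0.012 for TIMM23B. With the length trend removed, IP versus total RNA was -0.046 for TIMM8A, -0.11 for TOMM40, -0.30 for PAM16 and -0.34 for TOMM40L, and rapamycin relative to total RNA was 0.073 for TIMM50. Of 26 same-numbered pairs of libraries from different groups 1 deviated together with r over 0.1, and of 44 other pairs 3 did. In groups of 2 libraries the deviations mirror each other, so these values cannot tell whether same-numbered libraries were paired. With the replicate block the calls were 31 for IP versus total RNA and 11 and 4 in total RNA after CDK12 siRNA and rapamycin. They were 9 and 25 in the IPs, and 10 and 24 relative to total RNA.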

Other observations

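Across all tested genes, gene body length and the rapamycin change in total RNA had a Spearman rho of -0.419, and across the 31 import genes one of -0.144. All points share the same 4 libraries, and no test was made.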
